A study of Mus musculus with 10 samples.

Results

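The Serpinb and Spink genes, which encode proteinase inhibitors, were examined in RNA of mouse esophageal epithelium. They were taken as all rows of the expression table whose symbol starts with Serpinb or Spink followed by a digit, leaving out symbols with -ps, and 40 of the 56691 rows met that rule, 28 Serpinb and 12 Spink genes. The study compared 5 libraries of wild-type (WT) mice with 5 libraries of mice of the genotype p63CreERT2;Mst1loxp/loxp;Mst2-/-, called knockout here. The knockout mice carry null alleles of the Hippo pathway kinase Mst2, loxP-flanked alleles of its relative Mst1, and CreERT2, a recombinase that tamoxifen switches on, under the name of p63, a transcription factor of basal cells of squamous epithelium. Both groups received 3 doses of tamoxifen at 100 mg/kg, given every 2 weeks, and the epithelium was collected for RNA at about 8 weeks. Expression was given as FPKM, fragments scaled to the length of the gene model and to the size of the library, so that levels can be compared between genes. The sources used here do not give the age or genetic background of the mice, or whether the WT mice carried the Cre allele. Nothing in the labels ties a library to its own mouse, and the p-values below therefore measure the spread between samples, which may be technical.

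Serpins are proteins that offer a proteinase an exposed loop as bait; when the loop is cut, the serpin springs shut and traps the enzyme. The Serpinb genes encode the clade of serpins that stay mostly inside the cell and are prominent in squamous epithelia, where they meet lysosomal cysteine proteinases and serine proteinases. Spink genes encode secreted inhibitors built of Kazal domains, which block serine proteinases by binding tightly in their active site. Spink5, the inhibitor LEKTI, restrains the kallikreins that loosen the outer layers of skin and of other stratified epithelia, and its loss causes Netherton syndrome in people.

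The transcript of Stk3, the gene of Mst2, was 2.08 to 3.48 FPKM in the wild-type libraries against 0.05 to 0.25 FPKM with the knockout, and that of Stk4, the gene of Mst1, 16.96 to 22.73 against 12.22 to 17.38 FPKM. The difference of Stk3 was -1.67 ± 0.12 (SE) on the log2(FPKM + 1) scale with an adjusted p of 2.78e-06 by limma, a linear model fitted across all genes, and that of Stk4 was -0.29 ± 0.12 with an adjusted p of 0.123. Markers of squamous epithelium such as keratins summed to 69187 to 76277 FPKM in the wild-type libraries and 70995 to 77747 FPKM in the others, most of it Krt4 and Krt13. Of these 10 markers 1 was called higher in knockout and 3 lower by limma: Sprr3 had a wild-type mean of 4895 FPKM and a knockout mean of 8574 FPKM (adjusted p = 0.0219), Krt76 6.95 and 0.416 FPKM (adjusted p = 0.000153), Krt78 732 and 392 FPKM (adjusted p = 0.0385) and Trp63, the gene of p63, 38.8 and 22.6 FPKM (adjusted p = 0.00293). They were named after their values were seen. The 6 mesenchyme markers summed to 4.44 to 13.56 FPKM in wild type against 0.07 to 1.13 FPKM in the knockout, nearly all of it Dcn, at 4.42 to 13.55 against 0.06 to 1.12 FPKM. Of the others Lum reached 0.08 FPKM, Col1a1 0.02, Col3a1 and Pdgfra 0.01, and Col1a2 was at 0 in all 10 libraries. The 13 leukocyte markers summed to 5.24 to 31.97 and 5.17 to 16.29 FPKM, with Fcer1a and Ly6g at 0. Most of that sum was Cd74, at 4.33 to 28.32 and 3.96 to 14.2 FPKM, while Ptprc reached 0.17 FPKM. Endothelium markers reached at most 0.15 FPKM, muscle markers 0.64, glandular stomach markers 0.13 and thyroid markers 0.05, and airway markers measured 2.95 to 15.27 FPKM in wild type against 2.0 to 10.43 FPKM. The part of such cells in the results below was not tested. Library totals recovered from the values were 13070000 to 16450000 fragments.

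Of the 40 genes, 18 reached 1 FPKM in at least 5 libraries, 16 Serpinb and 2 Spink genes, and only these were tested. Levels ranged from 0.168 FPKM for Spink12 to 2688 FPKM for Serpinb3a in the wild-type mean. Serpinb3a, Serpinb12 and Serpinb3c had the highest wild-type means of all members, at 2688 ± 537, 2237 ± 438 and 1310 ± 1175 FPKM (SD, n = 5). Spink5 followed at 451 ± 97.2 FPKM, then Serpinb5, Serpinb11, Serpinb1a, Serpinb3b and Serpinb2 with wild-type means between 113 and 270 FPKM. The order of neighbours is not firm. Wild-type ranges overlapped for Serpinb3a and Serpinb12, for Serpinb5 and Serpinb11, and for Serpinb1a, Serpinb3b and Serpinb2. The place of Serpinb3c is less firm still. In wild type 1 and 2 it stood at 83.56 and 17 FPKM, below Spink5 at 417.34 and 566.09 FPKM. Serpinb7 at 46.6, Serpinb8 at 30.4, Serpinb10 at 19.9 and Serpinb13 at 11.4 FPKM were intermediate, and Serpinb6a, Serpinb6b, Serpinb9, Serpinb1b and Spink12 had wild-type means of 8.57 FPKM or less.

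**Figure D1:**
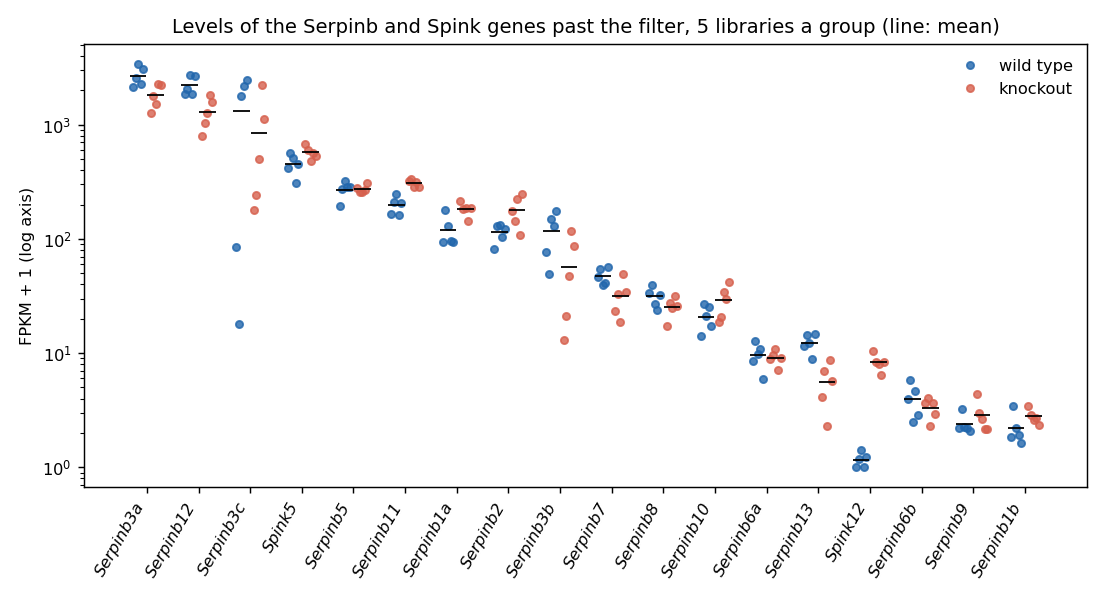
Level of each of the 18 tested Serpinb and Spink genes as FPKM + 1 on a log axis, in the 5 wild-type and the 5 knockout libraries, with 1 point per library and the mean of each group as a line. Spink12 stands near the bottom of the axis in every wild-type library and at 5.47 to 9.35 FPKM in the knockout libraries, while Serpinb3c is spread over more than 1 order of magnitude in both groups.

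In knockout epithelium the transcripts of Spink12, Serpinb11 and Serpinb1a rose, and those of Serpinb12 and Serpinb13 fell, by limma with Benjamini-Hochberg adjustment over all tested genes at a threshold of 0.05. These 5 of 18 genes stand beside 12.9% of the 11386 genes tested that were called in either direction, 7.9% higher and 4.96% lower. Spink12 is among the 18 only through the knockout libraries, since no wild-type library reached 1 FPKM, so its call and its lack of overlap support nothing in these counts, which are a description. Of the genes called in either direction 61.4% were higher, against 46.6% after median ratio scaling and 47.9% after quantile normalization. The wild-type and knockout values did not overlap for 4 of the 18 genes (Spink12, Serpinb11, Serpinb12 and Serpinb13), beside 10.5% of all tested genes, 6.62% with higher and 3.88% with lower knockout values. The median log2 fold change of the 18 was 0.14, with 10 positive and 8 negative, and that of all tested genes was 0.06. In bulk tissue, fewer cells of a type and less RNA per cell cannot be told apart.

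**Figure D2:**
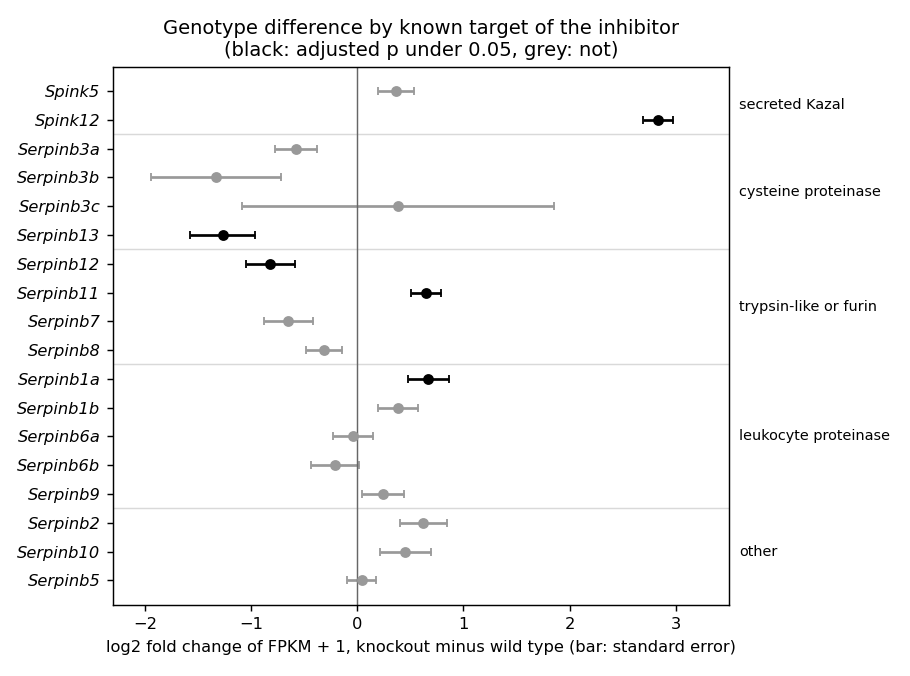
Difference between knockout and wild type in log2(FPKM + 1) for the 18 tested genes, grouped by the kind of proteinase each inhibitor is known for, with the standard error of the limma fit as bars and black points for an adjusted p under 0.05. The black points are Spink12, Serpinb11 and Serpinb1a to the right of 0 and Serpinb12 and Serpinb13 to the left, and the widest bar belongs to Serpinb3c.

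Among the secreted Kazal inhibitors, Spink12 (ENSMUSG00000061144, chromosome 18) went from near silence to a steady low level. Its values were 0, 0.19, 0.41, 0 and 0.24 FPKM in wild type 1 to 5 and 9.35, 7.3, 7.02, 5.47 and 7.39 FPKM in knockout 1 to 5. Every knockout library lay far above every wild-type library. Converted with the recovered library totals, these are 13 fragments in the 5 wild-type libraries together and 513 in the 5 knockout libraries, and the 3 fragments that a count of 0 allows correspond to 0.198 FPKM in wild type 1 and 0.206 FPKM in wild type 4. The wild-type mean was 0.168 ± 0.174 FPKM and the knockout mean 7.31 ± 1.38 FPKM (SD, n = 5 each). The log2 fold change was 2.83 ± 0.14 (SE), with an adjusted p of 9.47e-08 by limma. Because Spink12 passed the filter only through the group where it is high, that p is not independent of the filter; with no filter on low genes the adjusted p was 2.77e-06. The size of the change depends on the pseudocount, at 5.06 with 0.1 and 1.25 with 5 in place of 1, and the adjusted p ranged from 1.12e-07 to 1.89e-05 over the alternatives.

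Spink5 (ENSMUSG00000055561, chromosome 18) was the abundant Kazal inhibitor of this tissue. Its 5 wild-type values were 417.34, 566.09, 511.21, 310.22 and 451.9 FPKM and its knockout values 676.79, 595.25, 482.41, 567.6 and 534.61 FPKM. The upper wild-type libraries reached into the knockout range. The difference of 0.36 ± 0.17 (SE) on the log2 scale did not pass the test (adjusted p = 0.176, limma). Because Spink5 makes up nearly all of it, the summed FPKM of the 12 Spink genes moved with it, from 453 ± 97.7 to 580 ± 72.7 FPKM, with an exact two-sided permutation p of 0.0476 and a p of 0.0952 after adjustment over the 4 sums examined. Without wild type 2 that sum passed, with an adjusted p of 0.0476 by the same exact permutation test.

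The other 10 Spink genes stayed below the filter. Spink1, a trypsin inhibitor best known from the pancreas, came closest, at 0.55, 0.44, 0.76, 0.66 and 1.25 FPKM in wild type 1 to 5 against 0.52, 0.87, 1.09, 1.59 and 1.46 FPKM in knockout 1 to 5. Its 4 values of at least 1 FPKM came from both groups, and each library held only 5 to 16 fragments of it. Spink7, an inhibitor well known from human esophageal epithelium, was at 1.29 FPKM in wild type 3, from 10 fragments, and at no more than 0.13 FPKM elsewhere. Spink7 was listed at 0 in 6 libraries, where the count allows up to 0.338 to 0.425 FPKM. Spink2, a testis inhibitor, reached 0.73 FPKM, Spink14 0.48, Spink8 0.26, Spink13 0.19, Spink4 of goblet cells 0.15, Spink6 0.07, and Spink10 and Spink11 0.03 FPKM each.

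The Serpinb3 genes are the mouse relatives of the human squamous cell carcinoma antigens, inhibitors of lysosomal cysteine proteinases and of some serine proteinases. They are near copies of each other, and this limits how far reads can be assigned to one of them. In GENCODE M21 on GRCm38, where all 4 lie on chromosome 1, the coding sequence of Serpinb3a was 92.6% identical to that of Serpinb3b, 91.2% to Serpinb3c and 89.2% to Serpinb3d, and Serpinb3b and Serpinb3c were 93.1% identical. Over the whole alignment of 1164 columns 81.4% were alike in all 4, but within the 90 columns that differ most 50% were. That stretch starts at coding base 1032, near the end of the reading frame where serpins carry the loop offered to the proteinase. It is shown because it is where the 4 copies can best be told apart. Capitals mark bases unlike the aligned base of Serpinb3a, all in the direction of transcription, and Serpinb3c lacks 3 bases of the others.
Serpinb3a: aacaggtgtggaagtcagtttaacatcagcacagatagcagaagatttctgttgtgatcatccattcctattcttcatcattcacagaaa
Serpinb3b: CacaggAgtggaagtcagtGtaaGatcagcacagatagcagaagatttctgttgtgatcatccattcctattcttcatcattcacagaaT
Serpinb3c: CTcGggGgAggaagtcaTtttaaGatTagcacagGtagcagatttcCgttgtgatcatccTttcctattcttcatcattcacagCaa
Serpinb3d: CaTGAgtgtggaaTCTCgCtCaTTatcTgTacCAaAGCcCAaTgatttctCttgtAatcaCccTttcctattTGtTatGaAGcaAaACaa
Serpinb3b differed from Serpinb3a at 5 of these bases, Serpinb3c at 12 and Serpinb3d at 35. Long runs are shared outside this stretch, and by Serpinb3a and Serpinb3b also within it. Of all 31-base sequences of the gene models 0.3348 of Serpinb3a, 0.3537 of Serpinb3b and 0.2867 of Serpinb3c also occur in another gene. Exons of Serpinb3b and Serpinb3c overlap by 35 bases on the same strand.

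Serpinb3a, the most abundant member, measured 2122.3, 2580.35, 3398.47, 2270.76 and 3066.68 FPKM across the wild-type libraries, and 1264.93, 1797.2, 1509.3, 2277.64 and 2249.12 FPKM across the knockout libraries. The top 2 knockout libraries, knockout 4 and knockout 5, lay within the lower part of the wild-type range. The mean was 1820 ± 447 FPKM in knockout (SD, n = 5), and the difference of -0.58 ± 0.20 (SE) on the log2 scale did not pass the test (adjusted p = 0.0799, limma). With the mean level of 4 clock output genes as a covariate it did, at -0.82 with an adjusted p of 0.0113 by limma. That clock level itself tended to be lower in knockout, at 1.482 to 4.076 against 2.496 to 4.693 in wild type. Fits with this covariate are therefore not free of the genotype difference.

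Serpinb3c varied more between libraries of one genotype than between the genotypes. Its values were 83.56, 17, 1787.95, 2203.35 and 2460.23 FPKM in wild type 1 to 5 against 179.16, 244.09, 496.77, 2215.28 and 1113.91 FPKM in knockout 1 to 5. Wild type 1 and 2 and knockout 1 and 2 were the low libraries, and the highest value was 145 times the lowest within wild type and 12.4 times within knockout. For Serpinb3a the same ratios were 1.6 and 1.8. The mean FPKM was lower in knockout, 850 ± 848 against 1310 ± 1175, but the log2 fold change was 0.38 ± 1.47 (SE), so that the sign differs between the scales and the adjusted p was 0.898 by limma. Its log2 fold change turned to -0.77 without wild type 2, -0.21 without wild type 1, -0.12 without knockout 4, -0.20 with sample quality weights and -0.97 with the clock covariate.

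Serpinb3b followed a similar course at a lower level, with 75.13, 48.56, 149.93, 129.39 and 175.51 FPKM across the wild-type libraries, and 12.06, 20.13, 46.13, 115.29 and 86.11 FPKM across the knockout libraries. Its lowest wild-type libraries were again wild type 1 and 2, and its lowest knockout libraries knockout 1 and 2. The difference of -1.33 ± 0.61 (SE) on the log2 scale had an adjusted p of 0.175 by limma, and with the clock covariate it was -2.15 with an adjusted p of 0.0139. Serpinb3c made up 3.66%, 0.642%, 33.5%, 47.9% and 43.1% of the summed FPKM of Serpinb3a to Serpinb3d in wild type 1 to 5 and 12.3%, 11.8%, 24.2%, 48.1% and 32.3% in knockout 1 to 5. The mean log2 level of the clock genes Dbp, Nr1d1, Per3 and Tef was 4.693, 3.948, 2.496, 4.333 and 3.049 in wild type and 4.076, 3.761, 2.132, 2.226 and 1.482 in knockout. The low Serpinb3c libraries thus had clock levels of 3.761 and above, and so did wild type 4, where Serpinb3c was high. Gm8080, a further copy of the group, measured 1.05 to 8.19 FPKM across the wild-type libraries, and 0.27 to 2.47 FPKM across the knockout libraries, and Serpinb3d at most 0.1 FPKM.

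**Figure D3:**
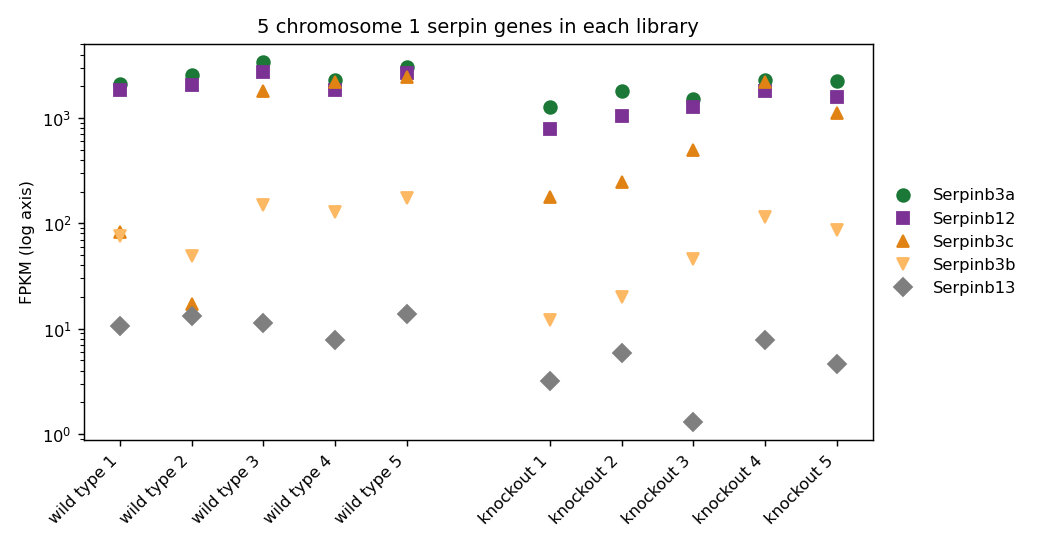
FPKM on a log axis of Serpinb3a, Serpinb12, Serpinb3c, Serpinb3b and Serpinb13 in each library, 1 symbol per gene. Serpinb3a and Serpinb12 stay within a narrow band, while Serpinb3c drops to 83.56 and 17 FPKM in wild type 1 and 2 and to 179.16 and 244.09 FPKM in knockout 1 and 2.

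Serpinb13 (ENSMUSG00000048775, chromosome 1), known as headpin and an inhibitor of cathepsins K and L, fell in knockout. It measured 10.51, 13.32, 11.33, 7.8 and 13.82 FPKM across the wild-type libraries, and 3.16, 5.92, 1.29, 7.75 and 4.65 FPKM across the knockout libraries. The groups did not overlap, but knockout 4 at 7.75 came within a few hundredths of wild type 4 at 7.8. The mean went from 11.4 ± 2.41 to 4.55 ± 2.48 FPKM (SD, n = 5 each), a log2 fold change of -1.27 ± 0.31 (SE) with an adjusted p of 0.0252 by limma. The adjusted p ranged from 0.01 to 0.0674 over the alternatives, and by limma it missed the threshold without wild type 1 (0.0531), wild type 5 (0.0674) or knockout 1 (0.0587), with no filter on low genes (0.0608) and with the clock covariate (0.0509).

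Serpinb12 (ENSMUSG00000059956, chromosome 1), an inhibitor of trypsin-like serine proteinases and by level the second member, also fell. It measured 1852.99, 2054.13, 2752.5, 1862.56 and 2660.91 FPKM in wild type 1 to 5 against 793.19, 1046.26, 1259.73, 1806.15 and 1588.07 FPKM in knockout 1 to 5. Every knockout library lay below every wild-type library, with knockout 4 just under wild type 1. The mean went from 2237 ± 438 to 1299 ± 407 FPKM (SD, n = 5 each), a fall of 41.9%, with a log2 fold change of -0.82 ± 0.23 (SE) and an adjusted p of 0.0353 by limma. By limma the call was lost without wild type 1 (0.0531), wild type 3 (0.0679), wild type 5 (0.0905), knockout 1 (0.0679), knockout 2 (0.0714) or knockout 3 (0.0657), with no filter (0.0844) and after quantile normalization (0.0601), and the range over all alternatives was 0.00117 to 0.0905.

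Serpinb11 (ENSMUSG00000026327, chromosome 1), a gene of the same cluster, moved the opposite way. It measured 163.68, 211.84, 245.59, 161.58 and 204.1 FPKM across the wild-type libraries, and 323.64, 332.05, 284.26, 313.2 and 281.48 FPKM across the knockout libraries. The lowest knockout library stood above the highest wild-type library. The mean rose from 197 ± 35.3 to 307 ± 23.0 FPKM (SD, n = 5 each), a log2 fold change of 0.65 ± 0.14 (SE) with an adjusted p of 0.00991 by limma. Serpinb11 was past the threshold under all 20 alternatives, with an adjusted p between 0.00573 and 0.0295 by limma.

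Serpinb7, known as megsin, whose loss causes a keratosis of palms and soles in people, measured 38.44 to 56.12 FPKM across the wild-type libraries, and 17.65 to 48.59 FPKM across the knockout libraries. The difference of -0.65 ± 0.23 (SE) had an adjusted p of 0.0838 by limma. The overlap came from knockout 4 at 48.59 FPKM, and without it the difference was -0.83 with an adjusted p of 0.0203. Serpinb8, an inhibitor of the proprotein convertase furin, had means of 30.4 ± 6.15 and 24.4 ± 5.24 FPKM (SD, n = 5 each) and did not pass the test (adjusted p = 0.253, limma).

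Serpinb2, the plasminogen activator inhibitor that blocks urokinase, measured 81.03, 129.3, 132.32, 102.68 and 120.38 FPKM across the wild-type libraries, and 174.94, 142.52, 223.47, 107.05 and 246.93 FPKM across the knockout libraries. All knockout libraries but knockout 4 lay above the wild-type range. The difference of 0.62 ± 0.22 (SE) had an adjusted p of 0.0877 by limma, and without knockout 4 it was 0.78 with an adjusted p of 0.0263. Serpinb10, annotated as a polymorphic pseudogene in GENCODE M21, went from 19.9 ± 5.43 to 28.1 ± 9.61 FPKM (adjusted p = 0.239, limma). Its exons overlap those of Serpinb2 by 291 bases on the same strand, 12.4% of the Serpinb2 model, so fragments there belong to either gene. Serpinb5, known as maspin, which has the serpin fold without acting as an inhibitor, had means of 270 ± 46.9 and 274 ± 20.9 FPKM. Its log2 fold change was 0.04 ± 0.14 (SE), with an adjusted p of 0.9 by limma, and its sign turned after both other scalings (-0.03 and -0.09).

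Both genes that fell, and Serpinb11 among those that rose, lie on chromosome 1 in a run of 12 Serpinb genes, of which 11 were tested. In order along the chromosome, Serpinb5 was not called, Serpinb12 and Serpinb13 fell, Serpinb3a and Serpinb3b had lower values that did not pass the test, Serpinb3c was not called, Serpinb11 rose, and Serpinb7, Serpinb2, Serpinb10 and Serpinb8 were not called. The summed FPKM of the cluster was 7039 ± 1984 in wild type and 4872 ± 1683 in knockout, a difference that did not pass an exact two-sided permutation test (p = 0.111, adjusted over the 4 sums 0.119), for which 252 assignments of libraries allow a smallest p of 0.00794. All 28 Serpinb genes together made up between 1.25% and 2.33% of all FPKM in wild type and between 0.828% and 1.85% in knockout (exact permutation p = 0.119, adjusted 0.119, on summed FPKM).

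**Figure D4:**
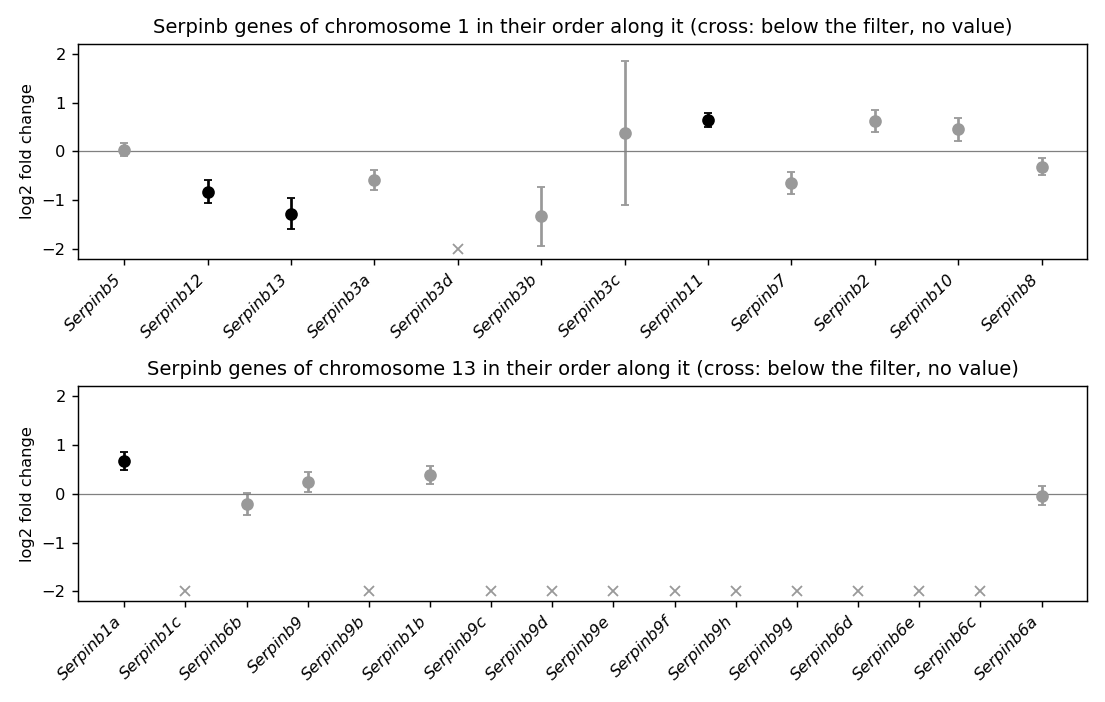
Log2 fold change of FPKM + 1 between knockout and wild type for the Serpinb genes of chromosome 1 and of chromosome 13 in their order along each chromosome, with standard errors as bars, black for an adjusted p under 0.05, and crosses at the lower edge for genes below the filter, which have no value. Within the chromosome 1 cluster Serpinb12 and Serpinb13 lie below 0 and Serpinb11 lies above 0, and on chromosome 13 most genes are crosses.

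The stretch upstream of the transcription start was searched for short motifs in RefSeq promoters of GRCm38.p6, for 27 of the 40 members. Of the Spink genes only Spink2 was searched, and of the called Serpinb genes Serpinb13 and Serpinb1a were not. Leaving out a member does not mean that RefSeq lacks a promoter for it. The motifs were TGANTCA (a loose form of the AP-1 site), GGAATG (the TEAD factors that act with YAP) and CACGTG (E-box). They were searched on both strands over the 250 bases before the start, and no 2 matches of different motifs overlapped. TGANTCA letters occurred upstream of 7 of the 11 chromosome 1 genes searched and of 0 of the 15 on chromosome 13. Counted by promoter, they occurred in 8 of 35 member promoters, beside 6.7% of 32851 promoters. The 7 were Serpinb5, Serpinb12, Serpinb11, Serpinb7, Serpinb2, Serpinb10 and Serpinb8. The usual AP-1 site has C or G at the open letter N. That letter was G in Serpinb7 and Serpinb8 and A or T in the others. Only Serpinb7 and Serpinb8 thus held the usual site. TEAD letters occurred in 6 of 35 member promoters, some of which are alternative starts of 1 gene, beside 12.6% of all promoters. They lay upstream of Serpinb10, Serpinb1b, Serpinb6a, Serpinb9c and Serpinb9h, and 22 bases before the second start of Serpinb12. Both Serpinb11, which rose, and Serpinb12, which fell, held TGANTCA letters with A or T at N. Serpinb3a to Serpinb3d held none of the 3 motifs. The first pair below shows the opposite movers Serpinb11 and Serpinb12, with the TGANTCA letters in capitals. The second pair shows the upstream sequences of Serpinb3b and Serpinb3c, which were 88.1% identical. All run in the direction of transcription: Serpinb11 is chr1:107362064-107362313 on the plus strand, Serpinb12 (first start) chr1:106934199-106934448 on the plus strand, Serpinb3b chr1:107161115-107161364 on the minus strand and Serpinb3c chr1:107278372-107278621 on the minus strand.
Serpinb11: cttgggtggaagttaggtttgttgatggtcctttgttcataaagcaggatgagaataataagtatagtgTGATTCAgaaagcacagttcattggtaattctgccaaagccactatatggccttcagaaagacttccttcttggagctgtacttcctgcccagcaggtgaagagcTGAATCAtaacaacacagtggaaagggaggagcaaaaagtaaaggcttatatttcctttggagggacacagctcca
Serpinb12: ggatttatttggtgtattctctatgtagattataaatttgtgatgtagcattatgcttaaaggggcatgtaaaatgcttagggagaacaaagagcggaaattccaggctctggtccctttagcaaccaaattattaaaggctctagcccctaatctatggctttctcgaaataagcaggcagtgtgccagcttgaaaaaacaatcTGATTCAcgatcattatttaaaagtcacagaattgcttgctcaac
Serpinb3b: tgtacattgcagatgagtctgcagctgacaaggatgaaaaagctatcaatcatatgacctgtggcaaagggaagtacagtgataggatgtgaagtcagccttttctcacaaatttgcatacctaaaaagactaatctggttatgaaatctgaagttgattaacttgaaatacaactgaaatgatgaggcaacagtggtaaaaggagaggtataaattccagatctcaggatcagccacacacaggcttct
Serpinb3c: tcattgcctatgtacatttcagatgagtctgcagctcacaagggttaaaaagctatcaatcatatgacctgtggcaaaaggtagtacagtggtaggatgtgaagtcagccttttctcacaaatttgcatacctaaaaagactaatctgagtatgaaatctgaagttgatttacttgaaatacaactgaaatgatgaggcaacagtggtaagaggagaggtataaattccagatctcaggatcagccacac
The TGANTCA letters begin 181 and 76 bases before the start of Serpinb11 and 45 bases before that of Serpinb12. Serpinb3a was 77.0% identical to Serpinb3b and 71.5% to Serpinb3c over the same stretch, and 44.5% to Serpinb3d. A match is a run of letters, and binding was not measured.

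The 16 Serpinb genes of chromosome 13 encode the relatives of inhibitors of leukocyte and cytotoxic granule proteinases, and 5 of them were tested. Serpinb1a (ENSMUSG00000044734), an inhibitor of neutrophil elastase and similar enzymes, was the most abundant, at 93.1, 176.81, 129.99, 95.41 and 93.15 FPKM in wild type 1 to 5 against 215.45, 183.75, 187.58, 141.27 and 186.01 FPKM in knockout 1 to 5. Wild type 2 lay above knockout 4, so the groups overlapped. The mean rose from 118 ± 36.6 to 183 ± 26.6 FPKM (SD, n = 5 each), a log2 fold change of 0.67 ± 0.19 (SE) with an adjusted p of 0.0385 by limma. That call rested on most libraries being present: by limma the adjusted p was 0.0988 without wild type 1, 0.0758 without wild type 4, 0.1 without wild type 5, 0.087, 0.0673, 0.0758 and 0.0807 without knockout 1, 2, 3 or 5, 0.0949 with no filter, 0.0643 with the clock covariate, and 0.0664 and 0.0595 after median ratio scaling and quantile normalization, in a range of 0.00543 to 0.1 over all alternatives.

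The other tested genes of chromosome 13 were low and did not pass. Serpinb1b went from 1.21 ± 0.724 to 1.79 ± 0.423 FPKM (log2 fold change 0.38 ± 0.19, adjusted p = 0.208, limma) and passed only without wild type 2, at 0.55 with an adjusted p of 0.0261. Serpinb9, an inhibitor of granzyme B, was at 1.4 ± 0.487 and 1.89 ± 0.923 FPKM (adjusted p = 0.459, limma). Serpinb6a, an inhibitor of cathepsin G, was at 8.57 ± 2.59 and 8.09 ± 1.35 FPKM (adjusted p = 0.916), and Serpinb6b at 2.94 ± 1.35 and 2.31 ± 0.691 FPKM (adjusted p = 0.585, limma). Exons of Serpinb6a overlap those of Nqo2 on the opposite strand by 762 bases, and 0.2895 of its 31-base sequences occur in another gene. All 5 tested genes of chromosome 13 had their highest wild-type value in wild type 2. That library had the lowest leukocyte marker sum of the wild-type group, 5.24 FPKM, of which Cd74 made up 4.33 FPKM. In knockout 1, where Serpinb1a was highest, the leukocyte markers summed to 11.54 FPKM, of which Cd74 made up 9.94 FPKM. Whether leukocytes contributed to these serpin values was not tested.

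The summed FPKM of the chromosome 13 genes went from 132 ± 40.4 to 197 ± 28.2, nearly all of it Serpinb1a, with an exact two-sided permutation p of 0.0159 and an adjusted p of 0.0635, or 0.0476 without wild type 2. The remaining 11 genes of this chromosome stayed at 0.39 FPKM or less, with the 7 genes Serpinb9b to Serpinb9h among them. Serpinb9d, Serpinb9f, Serpinb9g, Serpinb9h, Serpinb6d and Serpinb6e were listed at 0 in all 10 libraries. If every fragment could be assigned to its gene, this allows up to 0.184 FPKM for Serpinb9d and up to 0.157 FPKM for the others. Counted as for Serpinb6a above, the share of sequence also found in another gene was 0.8947 for Serpinb9h and 0.873 for Serpinb9f. It was 0.679 for Serpinb9g, 0.4713 for Serpinb9d, 0.0876 for Serpinb6d and 0.0449 for Serpinb6e. Whether fragments of shared sequence were left uncounted was not tested. Serpinb9b reached 0.39, Serpinb1c 0.27, Serpinb6c 0.1, Serpinb9e 0.07 and Serpinb9c 0.04 FPKM.

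The proteinases that these inhibitors are known to meet were counted in lists drawn from textbook targets, to be read beside the 7.9% of all tested genes called higher and the 4.96% called lower. With 1 library left out, the genes called over all these lists numbered between 4 and 11 higher and between 3 and 5 lower, against 9 and 5 with all libraries, and the fewest remained without wild type 1 or wild type 5. Of 21 tested serine proteinases of squamous epithelium 7 were higher and 2 lower in knockout, their median log2 fold change being 0.43, and their summed FPKM was 1906 to 2369 across the wild-type libraries against 2724 to 4274. The 3 with the smallest p were the membrane proteinase Tmprss11g, from 12.8 ± 3.86 to 38.0 ± 6.4 FPKM (log2 fold change 1.53, adjusted p = 0.000341, limma), the kallikrein Klk10, from 432 ± 81.0 to 1055 ± 228 FPKM (1.28, adjusted p = 0.000788), and Tmprss11b, from 47.4 ± 10.3 to 107 ± 30.1 FPKM (1.14, adjusted p = 0.00368). The 2 lower ones, named after their values were seen, were Klk5 and Klk7, kallikreins of cell shedding. Klk5 went from 15.7 ± 3.87 to 2.64 ± 3.2 FPKM (-2.57, adjusted p = 0.00664, limma) and Klk7 from 69.8 ± 16.9 to 22.7 ± 14.7 FPKM (-1.84, adjusted p = 0.0253). Other kallikreins did not move with them. Klk12 was called higher, as Klk10 was. Klk6, Klk9, Klk11, Klk13 and Klk14 had positive log2 fold changes and Klk8 a negative log2 fold change, none of them called.

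Of 9 tested lysosomal cysteine proteinases 2 were higher and 0 lower by limma, with a median of 0.02; at an unadjusted p under 0.05 these counts were 3 and 1. Ctsc, the dipeptidyl peptidase that activates granule proteinases, rose from 10.3 ± 2.84 to 17.6 ± 4.3 FPKM (log2 fold change 0.73, adjusted p = 0.0236, limma), and Lgmn, the asparaginyl endopeptidase, from 7.53 ± 0.558 to 10.5 ± 2.11 FPKM (0.42, adjusted p = 0.0391). Ctsh was at 6.49 and 10.3 FPKM (adjusted p = 0.0601, limma). Of the plasminogen system only the urokinase gene Plau was tested, at 9.81 and 8.6 FPKM (adjusted p = 0.552, limma). The proprotein convertases had 4 tested genes and none called by limma, with 0 at an unadjusted p under 0.05; Pcsk6 (adjusted p = 0.258), Pcsk7 (0.429) and Furin (0.868, limma) had the 3 smallest p.

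The leukocyte granule proteinases, targets of the chromosome 13 serpins, had 0 of 14 genes tested. They summed to 0.04 to 1.62 FPKM across the wild-type libraries, and 0 to 0.07 FPKM across the knockout libraries. Of 8 tested inhibitors of other kinds 0 were higher and 3 lower by limma, with a median of -0.28; at an unadjusted p under 0.05 they were 2 and 3. The 3 lower ones were the whey acidic protein inhibitor Wfdc12, from 121 ± 17.6 to 57.3 ± 8.01 FPKM (log2 fold change -1.06, adjusted p = 0.000341, limma), the cystatin Cst6, from 34.2 ± 2.8 to 22.8 ± 2.96 FPKM (-0.57, adjusted p = 0.00512), and Wfdc5, from 207 ± 25.8 to 151 ± 9.85 FPKM (-0.45, adjusted p = 0.0282).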

How the data were processed

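RNA of dissected, Dispase-separated esophageal epithelium was sequenced as read pairs, per the labels' protocols. The authors deposited 1 table of FPKM values; cutadapt, HISAT2 2.0.1, HTSeq 0.6.1 and mm9 are named in the submitters' processing notes, while the sources used here do not give the annotation release or the use of strand. The 11386 genes that reached 1 FPKM in 5 or more of the 10 libraries were tested as log2(FPKM + 1) with limma 3.58.1 in R 4.3.3 (genotype only, empirical Bayes with trend and robust estimation, Benjamini-Hochberg over all tested genes, threshold 0.05). That scale understates changes of low genes. No count model was fitted.

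Every member past the filter is described, with all values for those past the threshold and the 3 most abundant; lists are represented by up to 3 tested genes of smallest p. Summed FPKM were compared by exact permutation. The members and lists were chosen with earlier results of these data known. Fragment totals were those at which 97.9% to 98.4% of values of short single-exon genes were whole numbers of fragments (9.3% to 11.0% by chance). Gene models came from GENCODE M21 (52073 of 56691 IDs found) and promoters from RefSeq, both on GRCm38, so no gene positions on mm9 are given. Of the 25 serine proteinases listed 24 were found. Alignments used MAFFT 7.526. The fit was tested on simulated data. Replicate numbers were not treated as pairs.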

Additional observations from a re-analysis of the deposited data

Results flagged for a closer look

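The value of Serpinb9 in wild type 2, 2.26 FPKM, stood apart from the other 4 wild-type libraries, which lay between 1.06 and 1.27 FPKM. The gap to its nearest neighbour was 0.825 of the whole range, above the critical value of 0.71 for 5 samples. This was 1 of 44 groups examined, and chance flags about 1 in 20.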

How the results depend on the processing

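The 20 alternatives gave 357 values for the tested members: 311 kept their direction and side of the threshold, 24 lost a call, 6 gained one and 16 changed sign. Besides those given with the genes above, the sign changed for Serpinb5 with the clock covariate (-0.08), without wild type 1 (-0.08) and without knockout 5 (-0.01); for Serpinb6a with sample quality weights (0.10), the clock covariate (0.02) and without wild type 2 (0.08), wild type 4 (0.02) or knockout 4 (0.04); and for Serpinb6b with the clock covariate (0.06). Those of Serpinb5 were also -0.03 (median ratio) and -0.09 (quantile), and those of Serpinb3c -0.20 (weights), -0.97 (clock), -0.21, -0.77 and -0.12 (without wild type 1, wild type 2 and knockout 4). The cause was not tested.

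With no filter, which tests all 27599 genes with any value above 0, 0 members were lower by limma (4 at an unadjusted p under 0.05), 511 of all genes were higher, and 4 proteinase and inhibitor list genes were higher and 3 lower. A filter at 5 FPKM left 329 genes lower, quantile normalization left 1 member lower, and sample quality weights called 1390 genes higher and 14 list genes higher. Leaving out 1 library gave 0 to 3 members lower, 436 to 1091 genes higher, 357 to 679 genes lower, 4 to 11 list genes higher and 3 to 5 lower; the summed difference of Spink genes ranged from 91.7 to 155.8 FPKM and that of chromosome 13 from 56.3 to 81.6 FPKM.

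The labels number replicates 1 to 5 in both groups, but deviations of same-numbered libraries correlated at 0.061, 0.423, 0.194, -0.241 and 0.107, and 1 pair was its own best match. Not every pair lay above 0.1, so the numbers were not taken to pair the samples. With a replicate block 3 list genes were lower, and 6 members were called, Serpinb3b (-1.33, adjusted p 0.0375, limma) joining the 5. Its values were lower in knockout in each of the 5 numbered pairs. Depth limits Spink12 in wild type and Spink1 and Spink7 throughout, where single fragments move values.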
